A study of Oncorhynchus mykiss with 6 samples.

Results

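Among the long non-coding RNAs (lncRNAs) of rainbow trout liver, 54 assembled transcripts shared at least 1 splice junction with a known gene but had a different exon chain. They were chosen as all transcripts with class code j in the exon table of assembled lncRNAs, a code that the assembly software gives to potential new isoforms of a reference gene. They came from 52 known genes and made up 54 of the 5916 transcripts of the complete list, which held 4989 known and 927 assembled lncRNAs. Exon structures and class codes were held for 224 of the 927 assembled transcripts, and 1 more was dropped because the table ends inside its lines. The rest of the 927 had no class code here, so 54 is a minimum for class j and does not give its share of the list. The other 3 codes in that table were o (exon overlap without a shared junction, 41 transcripts), u (intergenic, 115) and x (exon overlap on the opposite strand, 14).

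The controls were rainbow trout kept at 18 °C, and the heat-stress fish were warmed from there by 1 °C each 24 h to 24 °C. All were labelled as 150 days old, and females were named as the fish harvested. An acclimation period of equal length is listed for every sample of both groups. The number of fish harvested is listed as 12 for every sample. Each group had 3 liver libraries, made from rRNA-depleted RNA with dUTP in the second strand. The tissue label is liver, although the extraction text speaks of retinas. The protocols say that RNA was mixed but not which fish entered each library, so the spread between libraries may be technical, and p-values measure that spread alone. Values of assembled transcripts were held for 3 libraries: control replicates 2 and 3, and replicate 2 of heat. In the tables of control replicate 1, heat replicate 1 and heat replicate 3 the list ends before the first assembled transcript, so those libraries had no value for these transcripts, which is not 0.

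A lncRNA is a long transcript with no recognised protein-coding frame. Like messenger RNAs, most are spliced, and one gene can give several isoforms that use some junctions in common and others not. Short reads that fall in shared exons fit several isoforms, and quantification software then divides them by an estimate, so the reads of a gene are better determined than those of each isoform.

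Dividing counts by FPKM and length gave the totals by which FPKM had been scaled, where M stands for 1000000. They were 29.97, 28.6 and 28.3 M fragments for control replicates 2 and 3 and heat replicate 2. Whether they equal the sequencing depths is not given. The 54 transcripts held 1508, 1409 and 2290 estimated reads in these libraries. Protein-coding genes are not in the tables, so the liver label was not checked against liver markers. In liver tissue, fewer cells of a type and less RNA per cell cannot be told apart.

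The host genes fell into 3 kinds in the RefSeq gene table of the assembly USDA_OmykA_1.1, a later assembly used only for gene names, gene types and neighbours. A known lncRNA gene hosted 28 of the transcripts (26 genes) and a protein-coding gene hosted 12 (12 genes). The gene identifiers of the other 14 were not matched in that table. Of the 38 matched host genes only 1 had a descriptive symbol: lrp12, which encodes a membrane receptor of the low-density lipoprotein receptor family. The rest carry LOC symbols, which do not name a product in that table, so the hosts could not be matched to lists of named genes such as heat shock proteins.

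The junction-sharing lncRNAs had a median of 3 exons, or 2 among those with at least 10 reads in some library. Of the 54, 25 had 2 exons, 11 had 3, 8 had 4 and 10 had 5 or more. The median exon number was 2 in each of the other classes, and 2-exon transcripts made up 38 of 41 in class o, 84 of 115 in class u and 13 of 14 in class x. The median spliced length was 1702 bases, against 647 in class o, 954 in class u and 1296.5 in class x. Among transcripts with at least 10 reads in some library the order against class x turned, with medians of 1852 bases in class j (42 transcripts) and 2345 in class x (10). Sharing a junction requires at least 2 exons, which all 224 transcripts had, and no test across transcripts was made because transcripts are not replicates.

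**Figure D1:**
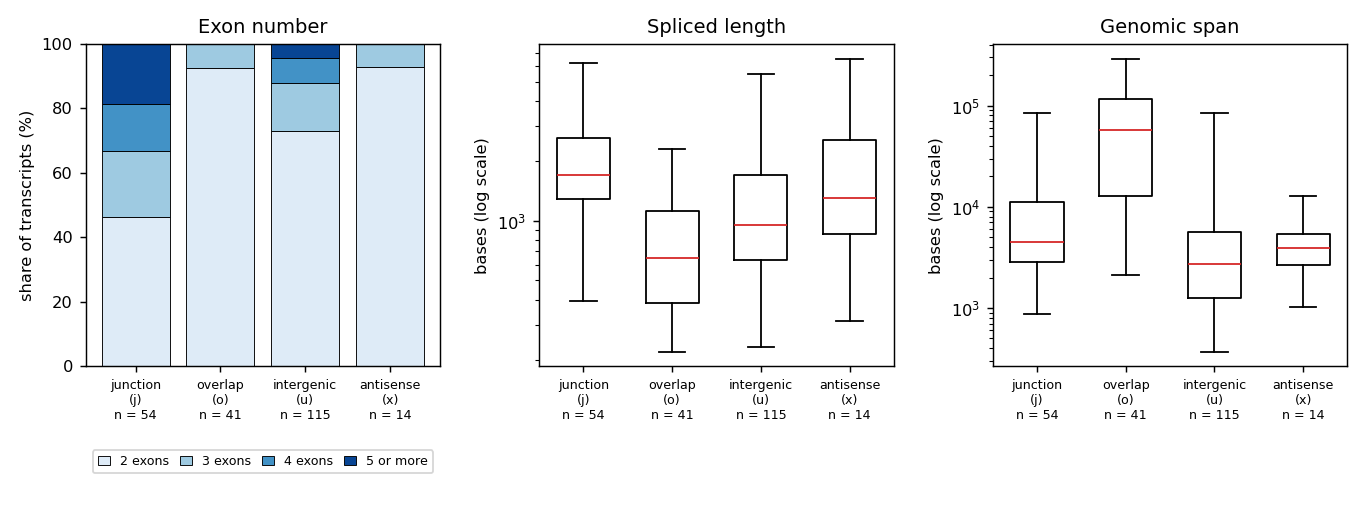
Exon number (stacked bars, share of transcripts in percent), spliced length and genomic span (boxes with median and quartiles, whiskers to the extremes, log scales in bases) for assembled lncRNAs by class code. Among junction-sharing transcripts 25 of 54 have 2 exons, against 38 of 41 in class o, whose median span of 57488 bases is the longest of the 4.

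From first to last base the junction-sharing transcripts spanned a median of 4493.5 bases, with a range of 870 to 84215. A span over 10 kb was found in 15. Class o had a median span of 57488 bases although its transcripts were shorter. A single exon made up over 80% of the spliced length in 21 of the 54. The plus strand held 32 and the minus strand 22, on 23 reference sequences. Of the 5 transcripts with the most exons (7), the 3 with the lowest identifiers were TCONS_00019482 (LOC110521569), TCONS_00048239 (LOC110533444) and TCONS_00070208 (LOC110488560). Their spliced lengths were 1263, 2715 and 2598 bases, and most of their exons were short: the shortest of TCONS_00070208 has 34 bases. The model of TCONS_00016562 (gene 110521238, picked out after its values were seen) holds an exon of 2 bases and an intron of 34 bases.

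A pair of host genes each gave 2 of the transcripts. LOC110492088 gave TCONS_00081165 and TCONS_00081166, on the minus strand of NC_035092.1 from base 41299444 to 41306063, in the coordinates of the deposited exon table, for which no source used here names a genome build. Its nearest protein-coding neighbour in the reference gene table is cd34a, of the CD34 surface glycoproteins known from blood vessel endothelium and blood stem cells. TCONS_00081165 has exons of 4557 and 1679 bases separated by an intron of 259 bases. In TCONS_00081166 that intron lies inside a single exon of 4452 bases, and the exon of 4557 bases is interrupted instead by introns of 83 and 1656 bases around an exon of 40 bases. They share 4497 exonic bases, 92.1% of TCONS_00081166 and 72.1% of TCONS_00081165, which at 6236 bases is the longest of the 54. LOC110536852 gave TCONS_00060020 and TCONS_00060021, on the minus strand of NC_035088.1 from base 658095 to 660722. Both have 3 exons and differ in the middle one, of 96 or 133 bases, so all 1518 bases of TCONS_00060020 are also in TCONS_00060021.

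**Figure D2:**
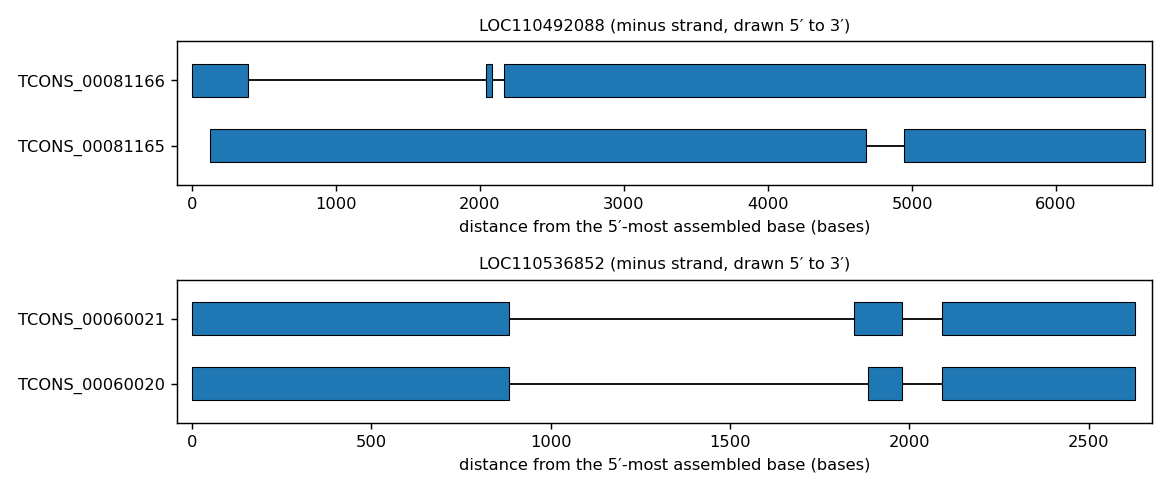
Exons (boxes) and introns (lines) of the 2 junction-sharing lncRNAs of LOC110492088 and of LOC110536852, drawn from 5′ to 3′ against the distance from the 5′-most assembled base. The 259-base intron of TCONS_00081165 falls inside an exon of TCONS_00081166, and the LOC110536852 pair differs in the length of the middle exon (96 or 133 bases).

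Most of the transcripts were at a low level. The level is given as FPKM, fragments per kilobase of transcript per M fragments, which allows transcripts of different length to be compared. The median over the 54 was 0.325 FPKM in control replicate 2, 0.16 in control replicate 3 and 0.24 in heat replicate 2. Reads were found for 48, 41 and 42 of them in these libraries, and for 35 in all 3. TCONS_00072692 (LOC110488653) and TCONS_00082719 (LOC110493575), both outside the naming rule, had no read in any. A count of 0 allows up to 0.0484 and 0.0319 FPKM for them in control replicate 2, taking 3 reads as the limit, which covers counting error only. A mean of at least 1 FPKM over the 3 libraries was reached by 7, and 36 were under 0.5. The median of these means was 0.33 FPKM, beside 0.557 in class o, 0.3 in class u and 0.295 in class x. Among transcripts with at least 10 reads in some library class j was lowest, at 0.428 FPKM, beside 0.75, 0.5 and 0.447 in classes o, u and x. In a shorter transcript 10 reads are a higher FPKM, so this cut falls at different levels in classes of different length. The order after the cut is therefore not a comparison of levels.

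The 2 highest mean levels belonged to transcripts of protein-coding hosts. Of the 12 transcripts with such hosts, 8 had a fractional count in some library. The coding transcripts of these hosts are not listed, and whether their reads contributed to the levels was not tested. TCONS_00078532 (LOC110491979) stood at 3.37 and 4.04 FPKM in the controls and 2.88 in heat replicate 2. TCONS_00007728 (LOC110500615), only 642 bases long, stood at 2.91, 3.27 and 2.37 FPKM in the same order. TCONS_00078130 (LOC110491761) stood at 1.08, 1.04 and 1.19 FPKM. TCONS_00090493, of lrp12, has exons of 1256 and 4145 bases on either side of an intron of 10961 bases. It stood at 1.15, 0.95 and 0.62 FPKM. TCONS_00095941 (LOC110499058) joins an exon of 36 bases to one of 2186 bases across an intron of 44826 bases. Its levels were 1.07, 0.96 and 0.52 FPKM. In FPKM, scaled by library totals, the heat library was below both controls in 4 of these 5 (46.3% of all lncRNAs tested). It was above both in TCONS_00078130 (28.9% of all). With the scaling used for the heat comparison, the fitted log2 fold changes of TCONS_00078532 and TCONS_00007728 were only -0.04 and -0.06. Over the 12 transcripts with protein-coding hosts the median was 0.815 and 0.705 FPKM in control replicates 2 and 3 and 0.445 in heat replicate 2.

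With lncRNA hosts the medians were 0.26, 0.095 and 0.26 FPKM over 28 transcripts. The highest were the LOC110492088 pair, described with the heat comparison, and TCONS_00071834 (LOC110488171), at 0.61 and 1.59 FPKM in the controls and 2.12 in heat replicate 2. Its 7 exons add up to 1351 bases. TCONS_00049444 (LOC110534237) stood at 1.78 and 1.14 FPKM in the controls and 0.26 in heat. TCONS_00060020 stood at 0.48, 1.14 and 0.99 FPKM, and its near-identical partner TCONS_00060021 at 0.3, 0.16 and 0. TCONS_00115620 (LOC110507352) stood at 0.43, 0.75 and 0.96 FPKM. For TCONS_00060020 the heat value lay between the controls, and for TCONS_00071834 and TCONS_00115620 above both. Of the 14 with an unmatched host, TCONS_00035822 (gene 110528931) was highest, at 0.8, 0.49 and 0.85 FPKM, and the medians were 0.365, 0.225 and 0.15.

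**Figure D3:**
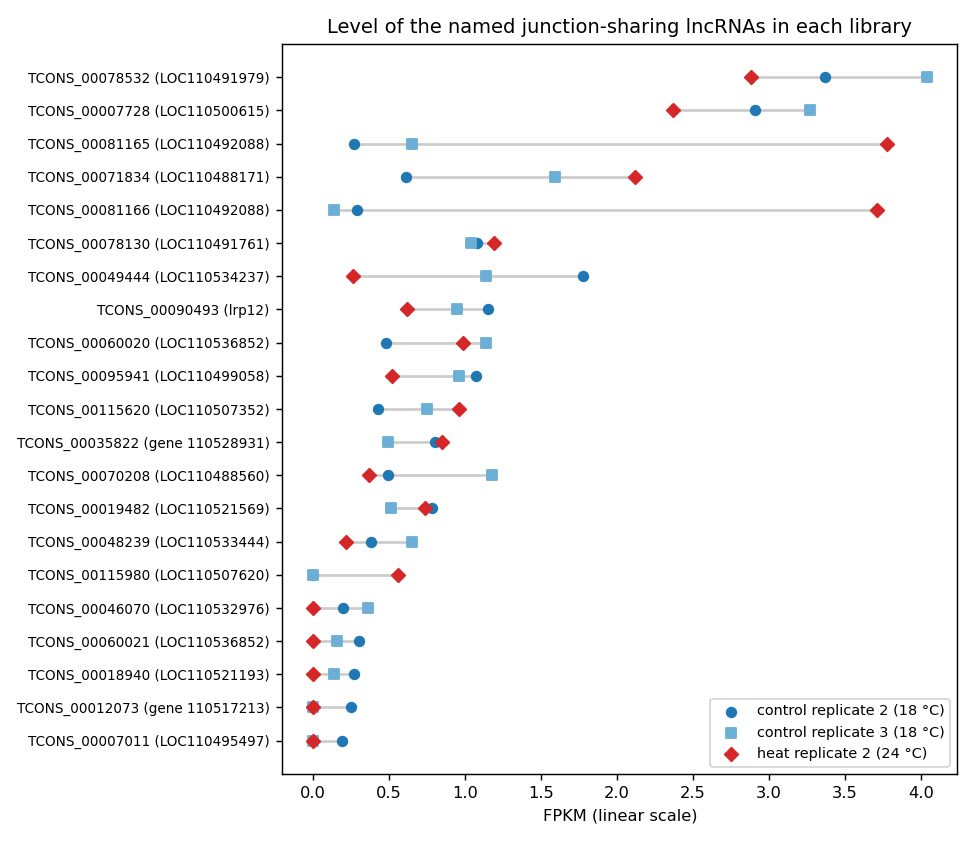
Level (FPKM, linear axis) of 21 junction-sharing lncRNAs in control replicates 2 and 3 (blue) and heat replicate 2 (red diamonds), with a grey line over the range. The LOC110492088 pair lies at 0.14 to 0.65 FPKM in the controls and at 3.71 and 3.78 in heat, while TCONS_00078130 stays between 1.04 and 1.19.

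Heat was compared with control to find lncRNAs induced by warming, the stated purpose of the study. One of the junction-sharing transcripts passed the test: TCONS_00081166 (LOC110492088), at 0.29 and 0.14 FPKM in the controls and 3.71 in heat replicate 2. Its estimated counts were 43.11, 20.03 and 512.42, and the heat value stood far outside both controls (log2 fold change 4.43 ± 0.57 SE, edgeR quasi-likelihood test, adjusted p = 0.028). This was 1 of the 39 with enough reads to test (2.56%), beside 21 of all 1511 lncRNAs tested (1.39%), 16 of them higher in heat (1.06%). The fit takes the spread of the only heat library from the 2 controls. The call was lost with scaling by the library totals (log2 fold change 4.08, edgeR adjusted p = 0.091), with a minimum count of 5 (edgeR adjusted p = 0.140) and with limma on FPKM (adjusted p between 0.274 and 0.341). Under each of these settings no lncRNA of the whole list was called. DESeq2 called 3 of the 39 entered (7.69%, beside 3.84% of all entered). It gave no adjusted p to some of them, such as TCONS_00018940, and these still count in the shares. On the unfiltered list edgeR called 3 of 52 (5.77%, beside 5.84% of all). In both, the 3 were TCONS_00081165, TCONS_00081166 and TCONS_00115980.

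Its partner TCONS_00081165 stood at 0.27 and 0.65 FPKM in the controls and 3.78 in heat, with a log2 fold change of 3.34 ± 0.69 SE that missed the threshold (edgeR adjusted p = 0.0995). Without control replicate 2 a plain difference of log2 reads per M listed reads, with a small constant added, was 2.77. Without control replicate 3 it was 4.17. This difference is not the edgeR fit. The known lncRNA of the same gene, XR_002468948.1, was at 0.44, 0.62 and 11.36 FPKM in the same 3 libraries and passed the test (edgeR adjusted p = 0.023, log2 fold change 4.73 ± 0.51 SE). Summed over its 3 transcripts, LOC110492088 held 135.01, 193 and 2204.99 reads, or 4.51, 6.75 and 77.9 reads per M fragments. The gene passed the test as a sum (log2 fold change 4.11 ± 0.50 SE, edgeR adjusted p = 0.029). In heat TCONS_00081165 took 30.3% of the reads of the gene (Wilson 95% interval 28.4 to 32.2%) and TCONS_00081166 took 23.2% (21.5 to 25.03%). In control replicate 2 these shares were 36.7% (29.4 to 45.4%) and 31.9% (24.6 to 40.1%), and in control replicate 3 they were 60.2% (53.1 to 66.8%) and 10.4% (6.81 to 15.5%). The controls thus differed from each other in the division of the reads, while the total of the gene in heat stood far above both. The intervals cover counting error only.

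**Figure D4:**
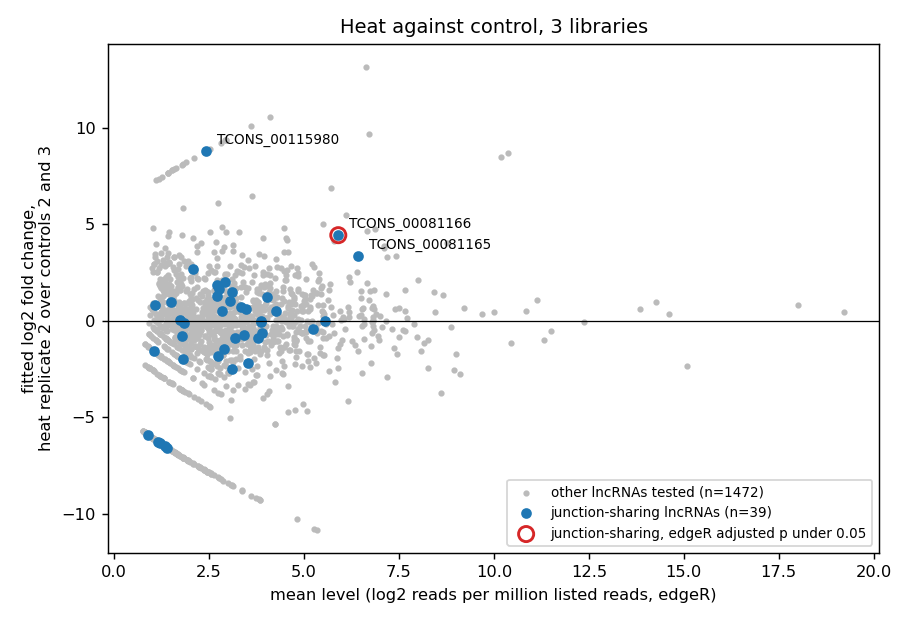
Fitted log2 fold change of heat replicate 2 over control replicates 2 and 3 against mean level (log2 of the reads per M listed reads) for 1511 lncRNAs tested, with the 39 junction-sharing ones in blue and the called one ringed. TCONS_00081166 is at 4.43 and TCONS_00081165 at 3.34, while the median of the 39 is -0.04. Points along the outermost slanted lines have 0 reads in a group, where the fitted value depends on the prior count.

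The other tested transcripts did not pass. The log2 fold change was above 0 in 19 of the 39 and below 0 in 20, with a median of -0.04, beside -0.19 over all 1511. Scaling by the library totals lowered the median of all by 0.35, to -0.54, and that of the 39 to -0.36. The FPKM of heat replicate 2 lay above both controls in 13 of the 39 (33.3%) and below both in 17 (43.6%). Over all 1511 the shares were 28.9% and 46.3%, so these counts are near the background. An unadjusted p under 0.05 was reached by 5 of the 39 (12.8%), beside 18.1% of all. By host type, the median log2 fold change was 0.99 over 19 tested transcripts of lncRNA genes, -0.06 over 9 of protein-coding genes and -0.81 over 11 with unmatched hosts. These medians were not tested against each other. They stayed at these values when the 6 tested transcripts at 0 in a group were set to the limit that 3 reads allow. None of the 6 limits crossed the median of its host type, so the medians could not move and this is no check on them.

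None of the 9 tested transcripts of protein-coding hosts was called, and their lowest adjusted p was 0.351. TCONS_00078532 had a log2 fold change of -0.04 ± 0.50 SE and TCONS_00007728 of -0.06 ± 0.56 SE (edgeR adjusted p = 0.988 and 0.984), and with size factors the first moved to 0.01. TCONS_00078130 was at 0.50 ± 0.49 SE, TCONS_00090493 of lrp12 at -0.43 ± 0.49 SE and TCONS_00095941 at -0.61 ± 0.56 SE (edgeR adjusted p = 0.620, 0.685 and 0.606). Each of these 5 differences was close to or smaller than its standard error, which does not show that the levels were equal. TCONS_00046070 (LOC110532976) had 9.05 and 15.7 reads in the controls and 0 in heat, a level at least 3.99-fold lower with the library totals and at least 3.16-fold with TMM scaling (edgeR adjusted p = 0.351). Without control replicate 3 the limits, against 3 reads in the heat library, were 2.85-fold with the library totals and 2.14-fold with TMM. These limits cover the counting error of the heat value alone. They leave out the counting error of the control reads and the division of reads among isoforms.

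Among transcripts with lncRNA or unmatched hosts, several had an estimated count of 0 in a group. The fold limits given for them hold only if that 0 is right. The limits cover the counting error of that 0 alone. They leave out the counting error of the other group and the division of reads among isoforms, so limits with these included would be smaller. TCONS_00115980 (LOC110507620) had an estimated count of 0 in both controls and of 46.46 in heat, 0.56 FPKM. If the 0 is right, that is at least 32.0-fold higher with the library totals. The floor of 3 reads over both controls was used, and the limit was, with the library totals, 15.6-fold without control replicate 2 and 16.4-fold without control replicate 3. TMM scaling gave 40.5-fold. With neither scaling did edgeR call the transcript. DESeq2 called it (adjusted p = 0.048). TCONS_00018940 (LOC110521193) had 14.83, 7.38 and 0 reads, at least 2.83-fold lower with TMM scaling and 3.58-fold with the library totals. TCONS_00060021 had 13.84, 6.91 and 0 reads, at least 2.65-fold lower with TMM scaling and 3.34-fold with the library totals. Without control replicate 2 the TMM limits were 2.04-fold and 1.91-fold. TCONS_00007011 (LOC110495497) and TCONS_00012073 (gene 110517213) had reads in control replicate 2 alone, 25.86 and 17.18. Their heat value of 0 therefore did not separate them from control replicate 3. None of these 4 was called (edgeR adjusted p between 0.453 and 0.606). Summed over the listed transcripts of the gene, the log2 fold change was -0.17 for LOC110507620, 1.06 for LOC110521193 and 0.26 for LOC110536852. For LOC110495497, with 0 reads in heat replicate 2, it was -8.67.

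TCONS_00049444 had the lowest adjusted p (0.200) of the transcripts with a lower heat value (log2 fold change -2.21 ± 0.74 SE, edgeR), followed by TCONS_00049635 (gene 110534360, added on account of its values). The latter stood at 0.75 and 1.11 FPKM in the controls and 0.12 in heat, or -2.51 ± 0.93 SE on the log2 scale (edgeR adjusted p = 0.235). TCONS_00071834 was at 1.25 ± 0.74 SE, TCONS_00115620 at 1.00 ± 0.80 SE and TCONS_00035822 at 0.74 ± 0.69 SE (edgeR adjusted p = 0.462, 0.572 and 0.609). As a plain difference of log2 reads per M, TCONS_00071834 was at 2.09 without control replicate 3 and at 0.66 without control replicate 2. TCONS_00060020 was at 0.59 ± 0.80 SE (edgeR adjusted p = 0.733), with 0.05 and 1.37 when control replicates 2 and 3, in this order, were left out. The transcripts with 7 exons lay between -0.90 and 1.47 in log2 fold change. The 18 tested transcripts outside the naming rule ranged from -2.51 to 2.70, none with an adjusted p under 0.235. The remaining 15 of the 54 had too few reads to test, at most 10.1 in any library and at most 0.41 FPKM.

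A fractional estimated count occurred in 41 of the 52 junction-sharing transcripts with reads, in 6 of 39 of class o, 30 of 107 of class u and 3 of 13 of class x. Known lncRNA transcripts of the same gene were found in the tables for 25 of the 54, from 24 genes. In these genes 46 combinations of gene and library held a fractional count, and in 33 of them (71.7%) the counts of all listed transcripts of the gene added up to a whole number within 0.02. For LOC110507620 in heat, for example, 46.46 and 14.54 reads add to 61. Of the other 28 genes, 27 had a single matched transcript, whose fractional count is its own sum, so they give no comparison. The 2 transcripts of LOC110536852 added up to 35.82, 56.49 and 42.57 reads, none of them whole. Only 1373 of the 4989 known lncRNAs were matched to a gene, so further listed transcripts of these genes may have been missed. The same holds for assembled transcripts without an exon structure here, which could not be matched to a gene. The gene sums and shares leave both out. Where the sum is whole, the reads of the gene are recovered and the division among its isoforms is an estimate.

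**Figure D5:**
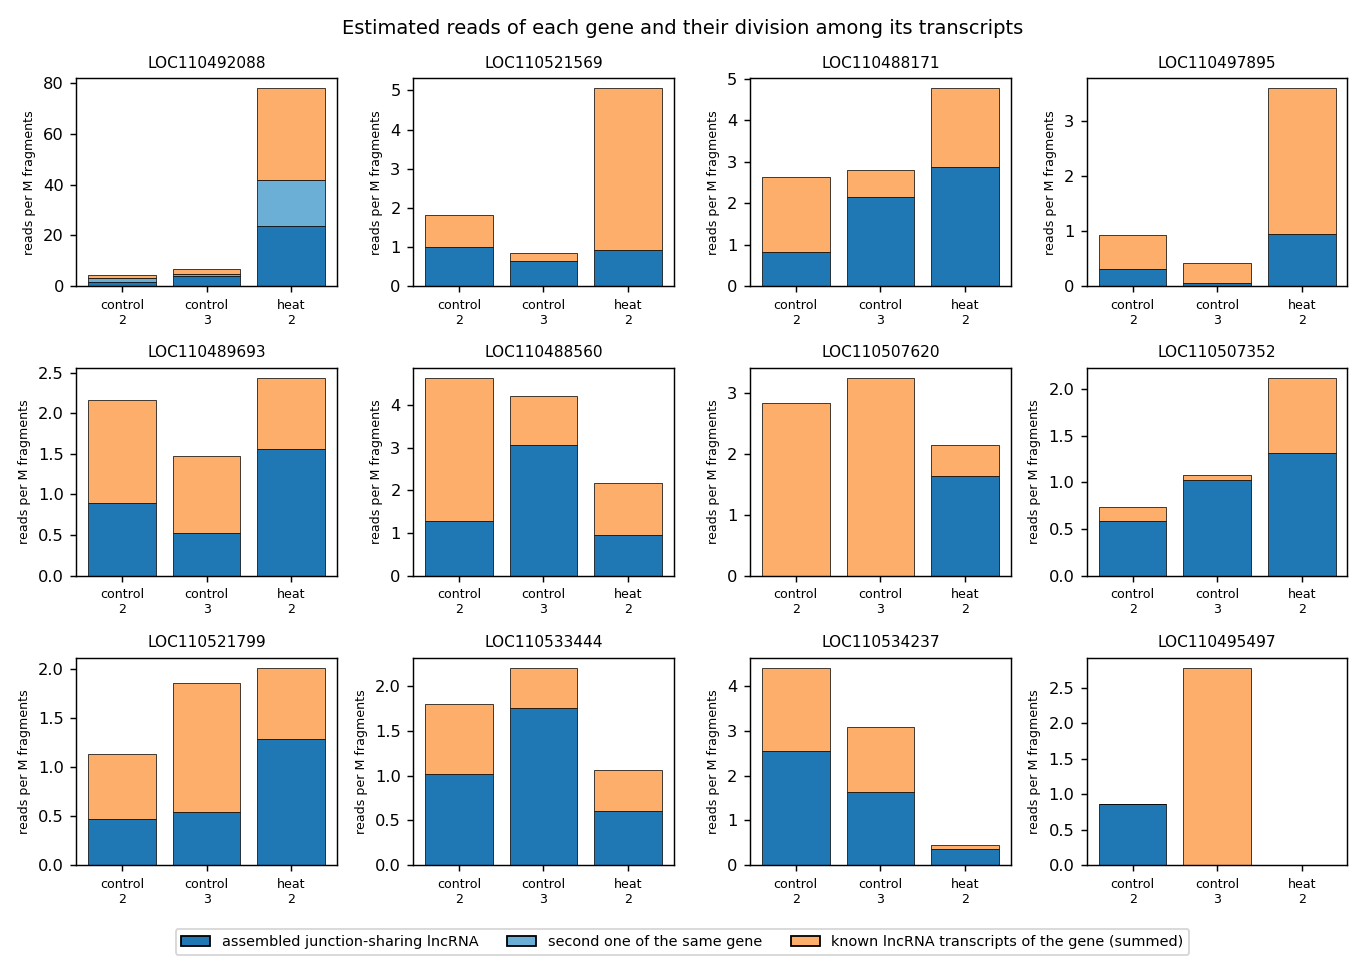
Estimated reads per M fragments of 12 host genes with at least 50 reads in some library, stacked by junction-sharing lncRNA (blue, light blue for another of the same gene) and known lncRNA transcripts (orange), with a scale of its own for each gene. LOC110492088 goes from 4.51 and 6.75 to 77.9, and in LOC110507620 the reads lie in the known transcript in the controls and mostly in TCONS_00115980 in heat.

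As sums, 40 host genes had enough reads to test and LOC110492088 alone was called, beside 1.34% of all 1492 units in that fit. Only the host genes were summed there, and every other lncRNA stayed a single transcript, so 1.34% is not a rate among gene sums. A host gene with a single listed transcript entered as that transcript. In LOC110507620 the gene held 85, 93 and 61 reads, or 2.84, 3.25 and 2.16 per M fragments (log2 fold change -0.17 ± 0.50 SE, edgeR adjusted p = 0.914). TCONS_00115980 took 0% of these reads in both controls (upper limits of the Wilson 95% intervals 4.32% and 3.97%) and 76.2% in heat (63.3 to 84.5%). The known XR_002471153.1 of this gene stood at 0.91 and 1.04 FPKM in the controls and 0.16 in heat replicate 2, which did not pass (edgeR adjusted p = 0.145, log2 fold change -2.19 ± 0.61 SE). In heat replicate 3, where the assembled partner has no value here, it stood at 0.57 FPKM. The gene span overlaps that of rasa2, which encodes a Ras GTPase-activating protein, in the reference gene table, and whether reads of rasa2 contributed was not tested.

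LOC110521569 showed another division. Its known XR_002473171.1 stood at 1.64 and 0.42 FPKM in the controls and 8.16 in heat replicate 2, with 3.13 in heat replicate 3 (log2 fold change 3.34 ± 0.81 SE in the 3 libraries, edgeR adjusted p = 0.128). TCONS_00019482 of the same gene stood at 0.78, 0.51 and 0.74 FPKM which is 0.52 ± 0.84 SE as a log2 fold change (edgeR adjusted p = 0.791). This transcript's share of the reads of the gene was 54.3% (Wilson 95% interval 42.4 to 68.0%) and 75.3% (55.1 to 88.0%) in the controls and 18.4% (12.7 to 25.3%) in heat. The listed transcripts of the gene added up to 54.34 and 24.29 reads in the controls, not whole numbers, and to 143 in heat. Part of the reads of the gene in the controls may therefore be missing from these shares. Neither transcript passed the test, and the difference between them was not tested.

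Shares could be set side by side in all 3 libraries for 13 transcripts whose gene had at least 10 reads in each. The heat interval lay apart from both control intervals for 2 of them, TCONS_00115980 and TCONS_00019482. The same count was not made for other lncRNA genes, so it has no background. The intervals leave out the error of dividing reads among isoforms, and any reads of a gene outside its listed transcripts. The intervals of the 2 controls lay apart from each other for 4: TCONS_00070208, TCONS_00071834, TCONS_00081165 and TCONS_00081166. TCONS_00071834 took 31.5% and 76.8% of the reads of LOC110488171 in the controls and 60.2% in heat, while the gene held 79, 80 and 135 reads. TCONS_00070208 took 27.6% and 72.9% of LOC110488560 in the controls and 43.9% in heat. The listed reads of LOC110488560 were 138.75, 120 and 61.33, whole in control replicate 3 only, so its shares may rest on an incomplete total. Libraries of the same group thus differed in these estimated shares by more than counting error, so a shift of share seen in a single heat library has no replicate check.

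Other host genes had heat totals outside the range of the controls but did not pass the test. LOC110534237 held 132.18, 87.88 and 13 reads, or 4.41, 3.07 and 0.459 per M fragments (log2 fold change -2.67 ± 0.59 SE, edgeR adjusted p = 0.101), and both of its transcripts were lowest in heat. LOC110497895 held 28, 12 and 102 reads (edgeR adjusted p = 0.106, log2 fold change 2.76 ± 0.62 SE). Its TCONS_00092912, added on account of its values, stood at 0.12, 0.02 and 0.35 FPKM. LOC110495497 held 25.86 reads in control replicate 2, all in TCONS_00007011, and 79.68 in control replicate 3, all in its 2 known transcripts, and none in heat replicate 2 (edgeR adjusted p = 0.107).

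For 8 host genes, 20 known transcripts were listed in all 6 libraries, and 13 of them had at least 10 reads in some. XR_002468948.1 (LOC110492088) was at 0.93, 0.44 and 0.62 FPKM in control replicates 1 to 3 and at 8.94, 11.36 and 12.83 in heat replicates 1 to 3. XR_002469738.1 (LOC110497895) was at 0.18, 0.37 and 0.22 FPKM in the controls and at 1.04, 1.6 and 0.45 in heat. In both, every heat library lay above every control, as in 10.1% of the 386 known lncRNAs with such values. XR_002468439.1 (LOC110488560) was at 1.03, 0.74 and 0.47 FPKM in the controls and at 0 in the 3 heat libraries, below every control as in 16.8% of the 386. The other 10 overlapped between the groups, among them both known transcripts of LOC110495497. XR_002469431.1 was at 0, 0 and 0.3 FPKM in control replicates 1 to 3 and at 0.17, 0 and 0 in heat replicates 1 to 3. XR_002469432.1 was at 0, 0 and 0.26 FPKM in the controls and at 0 in the 3 heat libraries. The absence of reads of LOC110495497 in heat replicate 2 was thus also seen for these transcripts in control replicate 1. These values belong to known transcripts that share a gene, and in part reads, with the assembled ones, and they give no level for the assembled ones in the libraries that do not list them.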

How the data were processed

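Liver RNA libraries of trout at 18 °C (3) and 24 °C (3) were compared. The submitters' processing notes name TopHat2 2.1.1 and Bowtie2 2.2.8 without their settings. The transcripts were assembled with Cufflinks, per the source column of the exon table. The sources used here do not give the genome build, the quantifier or its strand setting. The deposited tables give an estimated count without normalization and an FPKM value per transcript, per the file headers. Library totals were computed as count divided by FPKM and spliced length, over assembled transcripts of at least 5 FPKM. Rounded estimated counts entered edgeR 4.0.16 (R 4.3.3), with TMM scaling, a filterByExpr minimum of 10 reads and two-sided robust quasi-likelihood F tests, on the whole list in the 3 libraries with complete tables. P-values were adjusted by Benjamini-Hochberg over all transcripts tested, with a threshold of 0.05. The pipeline was run on simulated counts. The simulation gave the heat library the same spread as the controls and did not divide reads among isoforms. It therefore cannot check either of these for the real data. DESeq2 1.42.0 and limma 3.58.1 (log2 of FPKM plus 0.1, 0.01 or 1) were alternatives. A standard error is the log2 fold change divided by the square root of F. Log2 fold changes without a control replicate are plain differences of log2 reads per M listed reads with a small prior count. They differ from the edgeR fit also by this method, most at low counts.

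Named transcripts were the called ones, the 12 highest in mean FPKM, the 8 with the largest fitted fold, those sharing a gene, and the 3 with the most exons and the 3 longest. Exceptions are marked. Transcripts and gene lists were chosen with earlier results of these data known. Gene sums, and the choice of genes with at least 50 reads, were added after seeing the data. No sequences are printed.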

Additional observations from a re-analysis of the deposited data

How the results depend on the processing

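No paired analysis was possible because the labels name no pairs of libraries, and the assembled transcripts have values in only 1 heat library. The number of lncRNAs called, 21 with TMM, was 36 with size factors, 58 with DESeq2 and 180 with no filter on low counts, and all 21 were among the calls of each. It was 0 with library totals, with a minimum count of 5 and with limma at each pseudocount, where 274, 262 and 216 to 255 had an unadjusted p under 0.05. Gene sums of the host genes, with every other lncRNA left as a single transcript, gave 20 calls and a fit without robust estimation gave 23. Of the junction-sharing transcripts, 1 was called with TMM and 3 with DESeq2 or no filter (TCONS_00081165, TCONS_00081166 and TCONS_00115980), while 0 were with library totals, a minimum count of 5 or limma at each pseudocount (274, 262 and 216 to 255 of all tested had an unadjusted p under 0.05). Why the count varies this much was not tested. As gene sums the log2 fold change turned to 1.06 for TCONS_00018940, 0.26 for TCONS_00060021 and -0.17 for TCONS_00115980, because a sum adds the reads of the gene's other transcripts. TCONS_00078532 turned to 0.012 with size factors and with DESeq2. Without control replicate 2 or 3, plain differences of log2 reads per M, with no fit or test, were taken. They ran from -0.23 to 0.18 for TCONS_00078532, from -0.21 to 0.11 for TCONS_00007728 and from -1.36 to 0.00083 for TCONS_00070208. The median control level of the 54, 0.265 FPKM, was 0.16 without control replicate 2, 0.325 without control replicate 3, and 0.427 among those with a count of at least 10 in some library, whose median exon number was 2 and not 3. Depth limits the low levels: for TCONS_00035822, of 1703 bases, 3 reads are worth 0.0588 FPKM in control replicate 2.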
